A study of Homo sapiens with 6 samples.

Results

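The genes described here are 41 human genes of sterol and fatty acid synthesis, chosen by name from the 58884 gene rows of the count table. They comprise 7 enzymes of the mevalonate steps, 11 of the squalene and sterol steps, 7 genes of SREBP control and sterol handling, 4 of fatty acid synthesis, 8 of desaturation and elongation and 4 of fatty acid activation. All 41 symbols matched 1 gene row each, and 40 had enough counts to be tested. The exception was CYP51A1. The genes were measured in SW480 cells, an established human colorectal cancer line, recovered from liver metastases that had formed after injection into the portal circulation of immunodeficient NSG mice. The 3 sgITPR3 libraries came from cells with a guide RNA against ITPR3, the type 3 inositol trisphosphate receptor, and per the labels the knockout was checked by Western blot. The 3 sgCtrl libraries came from cells with a control guide. Both groups shared the cell line, the host strain and the steps of collagenase digestion, density gradient and mouse cell depletion. The labels do not say whether cells were a clone or a pool, or that each library had its own animal, so p-values measure the spread between these libraries, which may be technical.

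Sterols are built from acetyl-CoA by way of mevalonate, farnesyl pyrophosphate and squalene. The genes of this route, and many of fatty acid synthesis, are transcribed by the SREBP factors. These are made as membrane proteins of the endoplasmic reticulum, where SCAP escorts them to the Golgi for cleavage when sterols are low and the INSIG proteins hold them back when sterols are high. SREBP-2, from SREBF2, acts mainly on sterol genes and SREBP-1, from SREBF1, mainly on fatty acid genes, and both bind promoters together with NF-Y, a factor of the CCAAT box.

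Promoter sequences of 6 members that were lower in sgITPR3 are shown because SREBP and NF-Y act at such sites. They are RefSeq sequences of GRCh38.p14, read 5′ to 3′ on the strand of the gene, and are limited to bases before the transcription start outside the exons of protein-coding genes. The SREBF2 stretch (chr22:41832855-41833078, plus strand) was printed because it holds the core of a sterol regulatory element. The others were picked after their values were seen, for their CCAAT boxes: HMGCS1 (chr5:43313513-43313662, minus strand), FDPS (chr1:155308616-155308747, plus strand), MSMO1 (chr4:165327419-165327622, plus strand), INSIG1 (chr7:155297628-155297775, plus strand) and SCD (chr10:100346983-100347123, plus strand). Capitals mark TCACNCCAC, the sterol regulatory element core, and CCAAT or its reverse complement ATTGG.
HMGCS1: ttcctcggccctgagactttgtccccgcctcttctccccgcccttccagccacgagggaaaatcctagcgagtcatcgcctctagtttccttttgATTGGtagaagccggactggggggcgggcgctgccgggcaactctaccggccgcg
FDPS: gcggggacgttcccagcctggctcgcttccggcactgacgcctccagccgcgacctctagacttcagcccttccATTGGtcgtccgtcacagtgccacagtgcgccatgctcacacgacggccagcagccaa
MSMO1: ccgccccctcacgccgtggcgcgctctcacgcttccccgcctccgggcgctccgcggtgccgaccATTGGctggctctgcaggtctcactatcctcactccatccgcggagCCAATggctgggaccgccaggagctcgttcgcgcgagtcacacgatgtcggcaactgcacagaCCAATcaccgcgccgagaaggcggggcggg
INSIG1: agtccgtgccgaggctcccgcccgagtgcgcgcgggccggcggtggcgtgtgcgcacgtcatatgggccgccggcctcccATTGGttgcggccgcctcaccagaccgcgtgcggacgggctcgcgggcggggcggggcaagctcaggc
SREBF2: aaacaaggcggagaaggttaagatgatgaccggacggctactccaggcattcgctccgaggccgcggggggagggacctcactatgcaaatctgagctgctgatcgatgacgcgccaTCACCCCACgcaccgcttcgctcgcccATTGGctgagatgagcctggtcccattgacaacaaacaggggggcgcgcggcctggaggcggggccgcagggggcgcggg
SCD: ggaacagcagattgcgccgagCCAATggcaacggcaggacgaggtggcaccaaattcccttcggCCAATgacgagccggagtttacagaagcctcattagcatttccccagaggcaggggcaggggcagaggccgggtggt

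RefSeq windows of 300 bases (250 before and 50 after the start) were found for 37 members, the members without one being ACAT2, FDFT1, SQLE and FASN. The CCAAT box was present on either strand in the windows of 27 of these 37 members (73.0%), against 39.7% of all 27305 genes with a window. Those 27305 were not limited to protein-coding genes or to genes tested here, so they are an unlike background. Of the 8 members with a window that were lower in sgITPR3, 7 held it, as did 19 of the 26 that did not pass the test. The sterol regulatory element core TCACNCCAC was found in SREBF2, at position -133 from the start with a CCAAT box at -106, and in ACSL1, against 1.39% of all genes. The E-box CACGTG was found in LSS, SC5D, INSIG1, SCAP and ELOVL5, which is 13.5% of members against 8.77% of all genes. Some genes have several windows, and among genes with 1 window the CCAAT box was in 69.2% of members and 36.2% of all genes. A match says only that these letters occur in the window.

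Libraries held 19140055 to 23943797 counts of tags from the 3' ends of transcripts, and levels are given as CPM, counts scaled to the library total after TMM. A level of 3 counts, the floor used here, corresponded to 0.121 to 0.161 CPM. The targeted gene ITPR3 (chromosome 6, 33620365 to 33696574) was at 39.3, 41.0 and 46.2 CPM in the sgITPR3 libraries, against 107, 93.8 and 94.0 CPM in the sgCtrl libraries (log2 fold change -1.22, SE 0.083, edgeR adjusted p = 1.28e-07). Tags read the end of the transcript and need not cover the guide's cut, so this level does not show what protein was left. Of 8 colorectal epithelial markers 5 were tested, of which EPCAM, KRT8 and KRT19 fell (log2 fold changes -0.32, -0.39 and -0.82), CDX2 rose and KRT18 did not pass. KRT20, CDX1 and CDH17 were at or near 0, and what these shifts contribute to the members' values was not tested. Lists of macrophage, endothelial and erythroid markers each summed to at most 2.26 CPM in any library. Fibroblast and stellate markers summed to 9.21 to 11.6 CPM in sgITPR3 and 7.14 to 7.41 CPM in sgCtrl, with COL1A1 higher and LUM at 0 in every library. The 12 hepatocyte markers, which include ALB, summed to 284, 186 and 137 CPM in sgITPR3 libraries, against 45.1, 205 and 27.5 CPM in sgCtrl libraries. Replicate 2 of sgCtrl thus lay within the sgITPR3 range. Of these markers 7 were tested, 1 rose (APOA1) and 6 did not pass, with log2 fold changes from 0.91 to 1.37, and APOA2 was at 0 in 5 of 6 libraries. Host hepatocytes are mouse cells, which the depletion step is meant to remove, and their reads would have to be counted on human genes to appear here. Fits of the members with the ALB level as a covariate are given below. They are given for members whose call ended or whose value moved by over 1.5 times, and for others that passed. ALB itself had a log2 fold change of 1.135 (edgeR adjusted p = 0.123), so these fits cannot fully separate its level from the group. For the related gene lists only the fit without that covariate is given, and none of the other alternatives. In bulk RNA, fewer cells of a type and less RNA per cell cannot be told apart.

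The comparison asked which of these genes differ when ITPR3 is targeted. Of the 40 tested members, 11 were lower in sgITPR3 at an edgeR adjusted p under 0.05, 2 were higher and 27 did not pass. The lower members were 27.5% of those tested, against 11.9% of all 15804 genes tested and 13.7% of the 12796 protein-coding genes tested. The members were chosen with earlier results of these data known, so these shares are a description and no independent test. The higher members were 5% of those tested, against 11.6% of all genes and 12.4% of protein-coding genes, and 23.5% of all genes passed in either direction. Among members 15 had every sgITPR3 library below every sgCtrl library (37.5%, against 19.7% of all genes and 22.2% of protein-coding genes). Another 6 had every sgITPR3 library above (against 19.6% of all genes). The median log2 fold change was -0.13 over members and 0.00086 over all genes tested. Without sgCtrl replicate 2, whose hepatocyte markers were the highest of the sgCtrl libraries, 12 members were lower and 2 higher, and over all genes 2140 were lower and 2121 higher. With ALB as a covariate 7 were lower and 1 higher, and over all genes 995 were lower and 1012 higher, against 1882 lower and 1835 higher without it. Under upper-quartile scaling the members split into 11 lower and 6 higher and all genes into 1415 lower and 2391 higher.

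**Figure D1:**
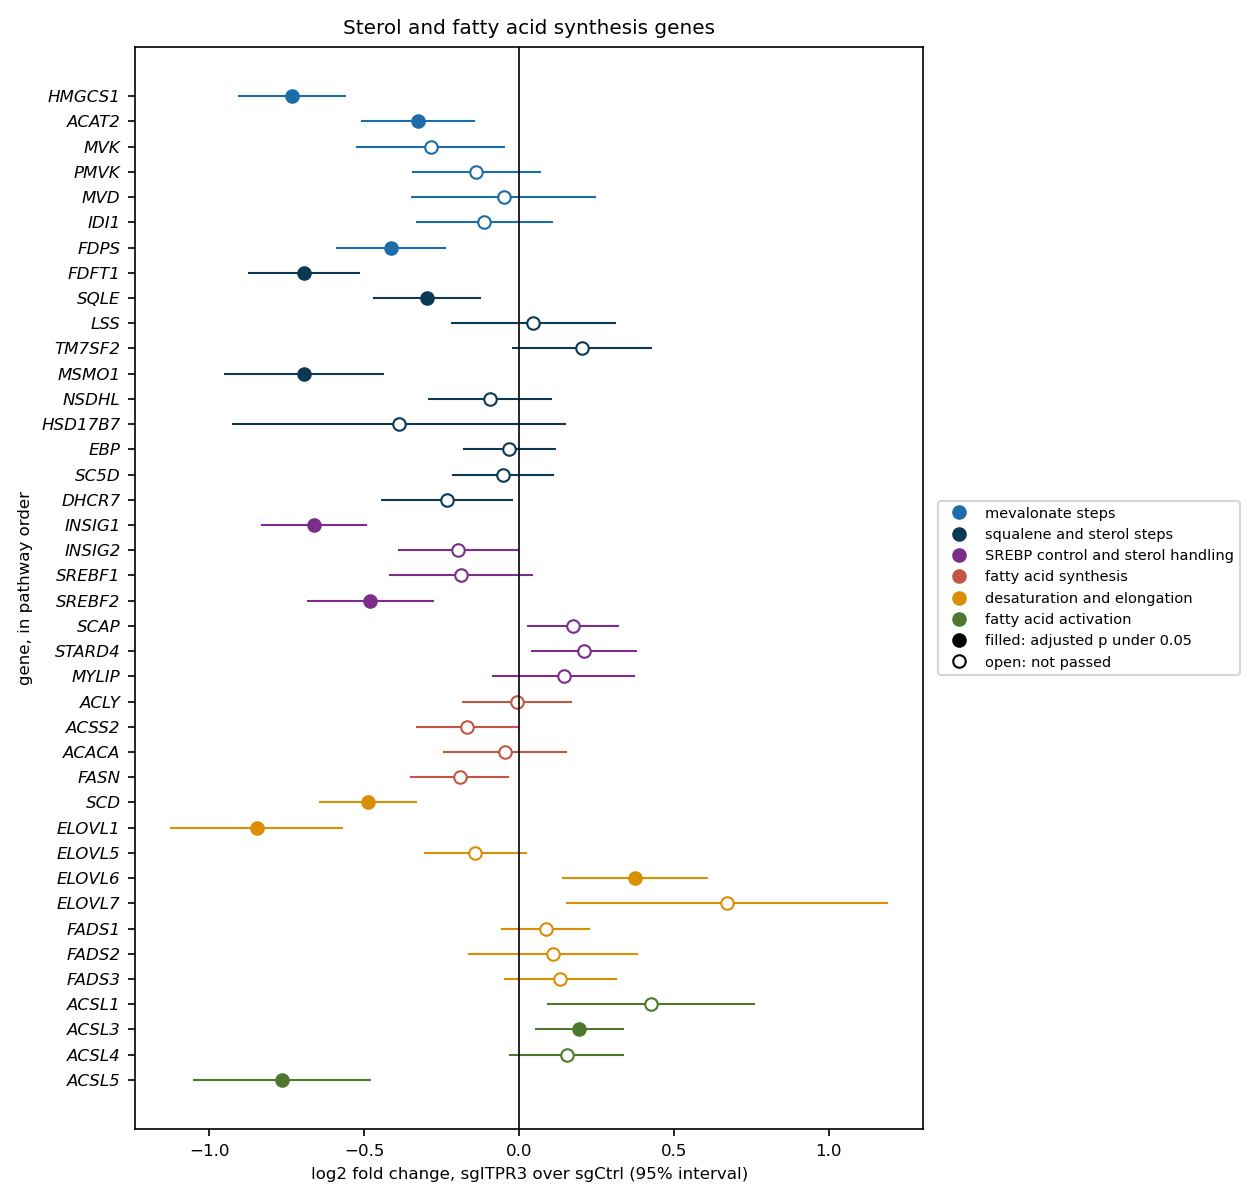
Log2 fold change of sgITPR3 over sgCtrl (x axis) for the 40 tested members in pathway order (y axis), coloured by step. Points are edgeR estimates, lines 95% intervals, filled points have an adjusted p under 0.05, and of the 11 filled points left of 0, 6 are sterol enzymes and 2 are INSIG1 and SREBF2.

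The mevalonate steps turn acetyl-CoA into farnesyl pyrophosphate, and of their 7 genes 3 fell and 4 did not pass (median log2 fold change -0.29). Those that fell were 42.9% of the 7, against 11.9% of all genes tested. All 7 estimates were negative, although that of MVD was 0.0087 under upper-quartile scaling. HMGCS1 (chromosome 5, 43289395 to 43313512), which condenses acetyl-CoA with acetoacetyl-CoA, was at 42.6, 40.7 and 42.8 CPM in sgITPR3 libraries, against 71.5, 62.8 and 75.4 CPM in sgCtrl libraries. The groups did not overlap, and the 3 sgITPR3 libraries lay close together. The level was 1.66-fold lower in sgITPR3, with a log2 fold change of -0.73 (SE 0.080, edgeR adjusted p = 1.55e-05), and -0.60 with ALB as a covariate. ACAT2 (chromosome 6, 159760328 to 159779055), the cytosolic thiolase that makes acetoacetyl-CoA, was at 46.2, 48.5 and 52.6 CPM in sgITPR3, against 68.1, 56.6 and 60.0 CPM in sgCtrl. Its log2 fold change was -0.33 (SE 0.084, edgeR adjusted p = 0.0116). The call was lost when ALB entered as a covariate (-0.22, adjusted p = 0.191), without sgITPR3 replicate 1 (adjusted p = 0.0605), without sgITPR3 replicate 2 (0.0505) and without sgCtrl replicate 1 (0.0506). ACAT2 overlaps TCP1, SOD2 and SOD2-OT1 on the opposite strand, and whether strand was used in counting is one item not given in the sources used here. TCP1, the abundant partner, had a log2 fold change of 0.02 (edgeR adjusted p = 0.848).

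FDPS (chromosome 1, 155308748 to 155320666), farnesyl pyrophosphate synthase, was at 65.7, 65.7 and 72.5 CPM in sgITPR3, against 99.3, 81.6 and 90.6 CPM in sgCtrl. The groups did not overlap, and the fall was 1.33-fold (log2 fold change -0.41, SE 0.081, edgeR adjusted p = 0.00206). With ALB as a covariate it was -0.29 with a wider SE of 0.095, and the call ended (edgeR adjusted p = 0.0546). Of 8 annotated FDPS pseudogenes, the most counted held 8 counts over all libraries, against 9748 for FDPS. Between these steps lie the kinases MVK and PMVK, the decarboxylase MVD and the isomerase IDI1. Their log2 fold changes were -0.29, -0.14, -0.05 and -0.11, with edgeR adjusted p from 0.0772 for MVK to 0.836 for MVD. IDI1 was at -0.01 with ALB as a covariate. MVK did not overlap between groups, at 10.996, 10.7 and 10.8 CPM in sgITPR3 against 13.8, 13.2 and 12.7 CPM in sgCtrl.

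From squalene onwards, 3 of 10 tested genes fell (30%), none rose and 7 did not pass (median log2 fold change -0.16). Together with the mevalonate steps, 6 of 17 tested sterol enzymes fell (35.3%, against 11.9% of all genes tested). With ALB as a covariate 3 fell, namely HMGCS1, FDFT1 and MSMO1. FDFT1 (chromosome 8, 11795573 to 11839309), squalene synthase, was at 32.0, 31.5 and 33.8 CPM in sgITPR3, against 57.2, 48.5 and 51.8 CPM in sgCtrl. This was 1.62-fold lower without overlap (log2 fold change -0.69, SE 0.083, edgeR adjusted p = 3.34e-05), and -0.60 with ALB as a covariate. SQLE (chromosome 8, 124998497 to 125022283), squalene epoxidase and a slow step of the pathway, was at 50.8, 50.4 and 53.3 CPM in sgITPR3, against 68.6, 56.6 and 64.6 CPM in sgCtrl. Its log2 fold change was -0.30 (SE 0.080, edgeR adjusted p = 0.0152). That call ended with ALB as a covariate (-0.17, adjusted p = 0.305) and without sgITPR3 replicate 1 (0.0576), sgITPR3 replicate 2 (0.0682) or sgCtrl replicate 1 (0.0617).

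MSMO1 (chromosome 4, 165327623 to 165343160), the methyl sterol oxidase that starts removal of the C4 methyl groups, was at 23.3, 25.3 and 29.9 CPM in sgITPR3, against 46.8, 34.6 and 45.4 CPM in sgCtrl. All sgITPR3 libraries lay below all sgCtrl libraries, with sgCtrl replicate 2 nearest to them. The fall was 1.62-fold (log2 fold change -0.69, SE 0.120, edgeR adjusted p = 7.82e-04), and -0.41 with ALB as a covariate. NSDHL and HSD17B7, which act after MSMO1 in the same removal, had log2 fold changes of -0.09 and -0.39 and did not pass (edgeR adjusted p = 0.504 and 0.292). HSD17B7 was low, at 3.02, 2.10 and 1.85 CPM in sgITPR3 and 2.63, 3.43 and 3.09 CPM in sgCtrl, and its copy HSD17B7P2 held 64 counts against 334 for the gene. In the fit with the ALB covariate its value was -0.62 (edgeR adjusted p = 0.235).

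The other genes of the late pathway did not pass. LSS, the cyclase that makes lanosterol, had a log2 fold change of 0.05, and 0.19 with ALB as a covariate. The sterol isomerase gene EBP had -0.03 and the desaturase gene SC5D -0.05, with 95% intervals from -0.18 to 0.11 for EBP and from -0.21 to 0.11 for SC5D. EBP was at -0.0080 with ALB as a covariate. DHCR7, the reductase that makes cholesterol from its last precursor in one branch, had a log2 fold change of -0.23 (edgeR adjusted p = 0.103), at 33.0, 34.3 and 28.4 CPM in sgITPR3 and 40.9, 38.2 and 33.4 CPM in sgCtrl. Without sgCtrl replicate 3 DHCR7 passed (-0.31, edgeR adjusted p = 0.04897). TM7SF2, a sterol reductase, had a log2 fold change of 0.20 (edgeR adjusted p = 0.177). It was at 43.6, 37.6 and 34.5 CPM in sgITPR3 and 32.0, 37.8 and 30.7 CPM in sgCtrl, highest within each group in the library with the most hepatocyte marker counts. Its log2 fold change was -0.0018 with ALB as a covariate, and the part of hepatocyte RNA in these values was not tested. CYP51A1, lanosterol demethylase, held 11 counts over the 6 libraries and was left out of the test by the filter for low counts. Its 3 annotated pseudogenes held 25, 1 and 88 counts. In GENCODE 29 a second protein-coding gene model on the same strand shares 2844 exon bases with CYP51A1 and held 0 counts, so the low count cannot be read as absence of the transcript.

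**Figure D2:**
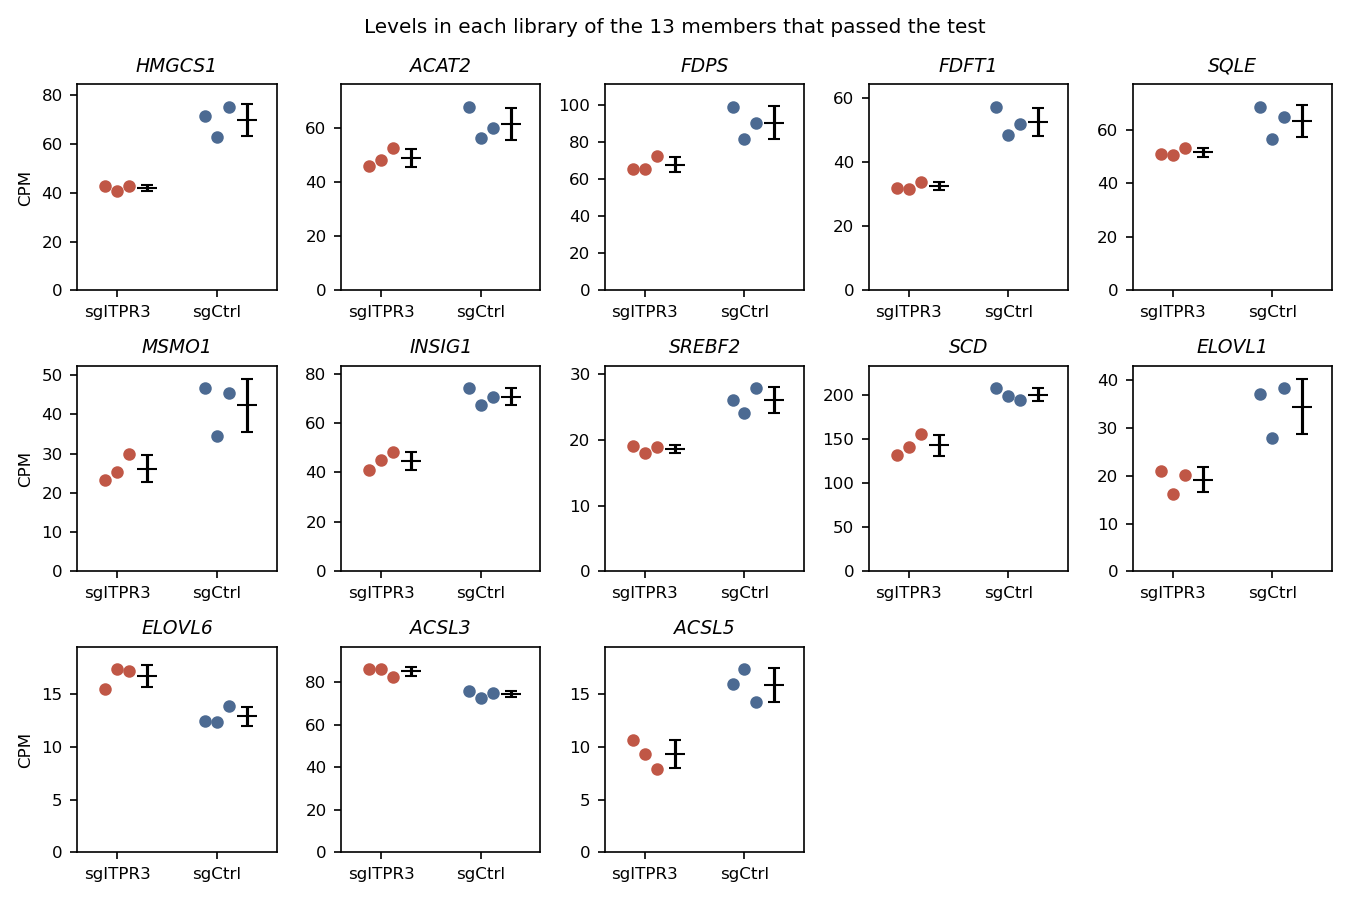
Level in CPM (y axis, from 0) of the 13 members that passed the test, in 3 sgITPR3 and 3 sgCtrl libraries (x axis). Dots are libraries, bars mean ± SD. For the first 10 genes and ACSL5 every sgITPR3 dot lies below every sgCtrl dot, while ELOVL6 and ACSL3 lie above.

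Among the genes that control SREBP, INSIG1 and SREBF2 fell, and INSIG2, SREBF1 and SCAP did not pass. INSIG1 (chromosome 7, 155297776 to 155310235), which retains SCAP in the endoplasmic reticulum and is itself an SREBP target, was at 41.1, 44.9 and 48.2 CPM in sgITPR3, against 74.3, 67.1 and 70.7 CPM in sgCtrl. It was 1.58-fold lower without overlap (log2 fold change -0.66, SE 0.079, edgeR adjusted p = 3.15e-05), and -0.57 with ALB as a covariate. INSIG2, its relative, was at 34.5, 34.1 and 32.7 CPM in sgITPR3, against 42.5, 39.2 and 34.3 CPM in sgCtrl (log2 fold change -0.20, SE 0.089, edgeR adjusted p = 0.129). Without sgCtrl replicate 3 INSIG2 passed (-0.28, adjusted p = 0.0452). Counts gave a ratio of INSIG1 to INSIG2 of 1.19, 1.32 and 1.47 in sgITPR3 libraries, against 1.75, 1.71 and 2.06 in sgCtrl libraries.

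SREBF2 (chromosome 22, 41833079 to 41907308) was at 19.1, 17.9 and 18.9 CPM in sgITPR3, against 26.1, 24.03 and 27.9 CPM in sgCtrl. The groups did not overlap, and the fall was 1.40-fold (log2 fold change -0.48, SE 0.094, edgeR adjusted p = 0.00206). With ALB as a covariate it was -0.38 with a wider SE of 0.125, and the call ended (edgeR adjusted p = 0.0529). SREBF1 (chromosome 17, 17810399 to 17837002) was at 12.6, 12.6 and 13.3 CPM in sgITPR3, against 15.5, 14.3 and 13.97 CPM in sgCtrl. It did not overlap either but did not pass (log2 fold change -0.19, 95% interval -0.42 to 0.04, edgeR adjusted p = 0.234), and its end overlaps that of RAI1 on the opposite strand. SCAP (chromosome 3, 47413694 to 47477126) was at 63.0, 63.5 and 61.0 CPM in sgITPR3, against 55.6, 56.8 and 53.8 CPM in sgCtrl. All sgITPR3 libraries were above all sgCtrl libraries (log2 fold change 0.17, SE 0.068, edgeR adjusted p = 0.0798), and the test was passed under upper-quartile scaling (adjusted p = 0.0235).

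The ratio of SREBF2 to SCAP counts was 0.303, 0.283 and 0.311 in sgITPR3, against 0.469, 0.423 and 0.519 in sgCtrl. Such ratios were taken for 6 pairs of members, chosen after their values were seen. Each pair was separated without overlap, and the exact two-sided permutation p was 0.1 for each, also after Benjamini-Hochberg adjustment, the smallest that 3 against 3 libraries allow. Because the pairs were picked from these same values, neither the separation nor the p-value tests a difference in any of the 6 ratios. The other pairs were SREBF2 to SREBF1, FDFT1 to EBP, ELOVL1 to ELOVL6, and ACSL5 to ACSL3. STARD4, a cytosolic carrier of sterols, was at 37.9, 37.6 and 37.8 CPM in sgITPR3, against 30.8, 33.8 and 33.5 CPM in sgCtrl (log2 fold change 0.21, SE 0.079, edgeR adjusted p = 0.0686), and passed under upper-quartile scaling (adjusted p = 0.0241). MYLIP, the ubiquitin ligase also called IDOL that is induced when sterols are high, overlapped between groups (log2 fold change 0.14, edgeR adjusted p = 0.358).

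None of the 4 genes that make palmitate passed the test (median log2 fold change -0.11). ACLY, which makes cytosolic acetyl-CoA from citrate, was at 109, 104 and 106 CPM in sgITPR3 and 121, 96.8 and 103 CPM in sgCtrl (log2 fold change -0.01, 95% interval -0.18 to 0.17), and its value was 0.079 with ALB as a covariate. ACSS2, which makes acetyl-CoA from acetate, was at 40.1, 38.5 and 36.7 CPM in sgITPR3, against 42.9, 42.4 and 44.3 CPM in sgCtrl (log2 fold change -0.17, edgeR adjusted p = 0.130). ACACA, the acetyl-CoA carboxylase of fatty acid synthesis, was at 32.1, 39.3 and 32.4 CPM in sgITPR3 and 34.7, 36.5 and 35.9 CPM in sgCtrl (log2 fold change -0.04, 95% interval -0.24 to 0.15). FASN, fatty acid synthase, was at 79.1, 79.6 and 79.1 CPM in sgITPR3, against 98.6, 83.4 and 89.8 CPM in sgCtrl. All sgITPR3 libraries lay below all sgCtrl libraries (log2 fold change -0.19, SE 0.073, edgeR adjusted p = 0.0724), and the test was passed without sgCtrl replicate 2 (-0.25, adjusted p = 0.0199). In the fit that included ALB, FASN was at -0.11 (edgeR adjusted p = 0.514).

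ACLY, ACACA, FASN and SREBF1 all lie on chromosome 17, where 687 genes averaging 5 CPM or more had a median log2 change of 0.17, set against -0.05 over 9941 such genes on other chromosomes. Single chromosomes had medians from -0.16 on chromosome 10 to 0.17 on chromosome 17, with 0.15 on chromosome 4 and -0.16 on chromosome 22. Genes within 5 Mb of FASN had a median of 0.19, those near ACLY 0.19, those near ACACA 0.21 and those near SREBF1 0.15. Each of these 4 members was below its neighbours, FASN at -0.19, ACLY at -0.01, ACACA at -0.04 and SREBF1 at -0.19. Neighbours of the 11 lower members had medians from -0.20 near HMGCS1 to 0.14 near MSMO1. Those of the 2 higher members had medians of 0.18 near ELOVL6 and 0.10 near ACSL3. The highest median for any member was 0.23, near ACSL1 on chromosome 4. The part that chromosome position plays in the members' values was not tested.

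**Figure D3:**
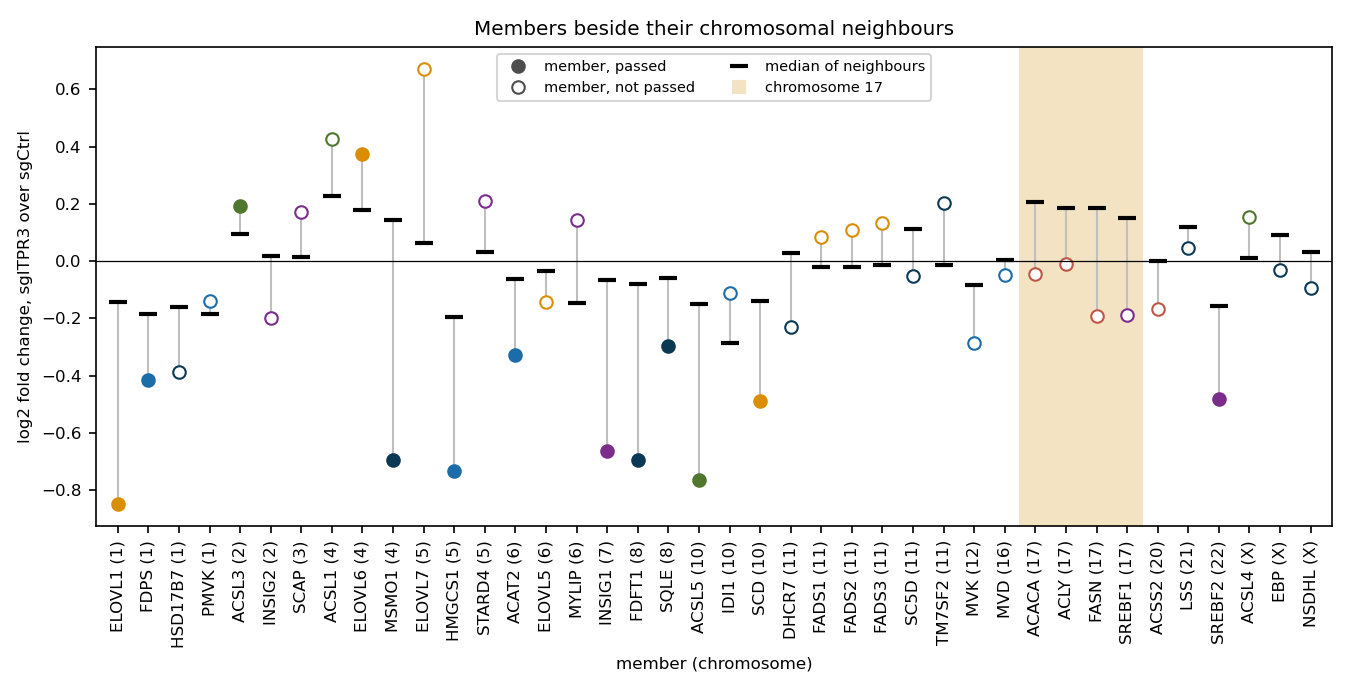
Log2 fold change of sgITPR3 over sgCtrl (y axis) of each tested member (circles, filled where the test was passed), ordered by chromosome (x axis), with the median of genes within 5 Mb as a black bar. On chromosome 17 the neighbours' medians lie from 0.15 to 0.21, above all 4 members.

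Desaturation and elongation genes went both ways, with 2 that fell, 1 that rose and 5 that did not pass (median log2 fold change 0.10). Lower genes were 25% of those tested and higher genes 12.5%, against 11.9% and 11.6% of all genes tested. SCD (chromosome 10, 100347124 to 100364834), the desaturase that makes oleate and palmitoleate, was at 132, 141 and 156 CPM in sgITPR3, against 208, 199 and 194 CPM in sgCtrl. It was 1.40-fold lower without overlap (log2 fold change -0.49, SE 0.073, edgeR adjusted p = 2.42e-04), and -0.45 with ALB as a covariate. ELOVL1 (chromosome 1, 43363397 to 43368074), which elongates saturated and monounsaturated very long chains for sphingolipids, also fell. It was at 21.0, 16.2 and 20.2 CPM in sgITPR3, against 37.1, 27.8 and 38.4 CPM in sgCtrl, or 1.80-fold lower, with a log2 fold change of -0.85 (SE 0.129, edgeR adjusted p = 2.86e-04), and -0.60 with ALB as a covariate.

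ELOVL6 (chromosome 4, 110045846 to 110199199), which elongates palmitate to stearate and so acts beside SCD, was higher. It was at 15.5, 17.4 and 17.1 CPM in sgITPR3, against 12.4, 12.4 and 13.9 CPM in sgCtrl (log2 fold change 0.37, SE 0.109, edgeR adjusted p = 0.0219). That call ended without sgITPR3 replicate 2 (adjusted p = 0.0967), sgITPR3 replicate 3 (0.0633), sgCtrl replicate 1 (0.0671) or sgCtrl replicate 2 (0.0515). With ALB as a covariate ELOVL6 was at 0.46 and only just passed (edgeR adjusted p = 0.04965). The ratio of ELOVL1 to ELOVL6 counts was 1.36, 0.928 and 1.18 in sgITPR3, against 2.99, 2.25 and 2.77 in sgCtrl. ELOVL7 was low, at 2.59, 3.35 and 2.78 CPM in sgITPR3, against 1.88, 1.89 and 1.71 CPM in sgCtrl (log2 fold change 0.67, SE 0.241, edgeR adjusted p = 0.0576), and passed under upper-quartile scaling (adjusted p = 0.0419). ELOVL5, an elongase of polyunsaturated fatty acids, had a log2 fold change of -0.14 (edgeR adjusted p = 0.204).

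FADS1 and FADS2, the delta-5 and delta-6 desaturases of polyunsaturated fatty acids, lie with FADS3 in a cluster on chromosome 11 from 61792980 to 61892051. Their log2 fold changes were 0.09, 0.11 and 0.13 for FADS1, FADS2 and FADS3, with edgeR adjusted p of 0.386, 0.576 and 0.275. FADS2 was at 0.26 with ALB as a covariate (adjusted p = 0.371). FADS1 was at 150, 154 and 140.1 CPM in sgITPR3 and 142, 135 and 142 CPM in sgCtrl, while its 95% interval ran from -0.06 to 0.23. FADS1 and FADS2 share 490 exon bases on opposite strands, and unless strand was used in counting, reads there could come from either.

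Acyl-CoA synthetases, which activate fatty acids for use, also went both ways, with 1 of 4 lower and 1 higher. Each direction was 25% of those tested, against 11.9% lower and 11.6% higher over all genes tested. ACSL5 (chromosome 10, 112374018 to 112428380), the form abundant in intestinal epithelium and mitochondria, was at 10.7, 9.38 and 7.93 CPM in sgITPR3, against 15.95, 17.4 and 14.2 CPM in sgCtrl. It was 1.70-fold lower without overlap (log2 fold change -0.76, SE 0.133, edgeR adjusted p = 8.44e-04), and -0.95 with ALB as a covariate. It shares 144 exon bases with ZDHHC6 on the opposite strand, which was also lower (log2 fold change -0.36, edgeR adjusted p = 0.006997). ACSL3 (chromosome 2, 222860934 to 222944639), a form of lipid droplets and the endoplasmic reticulum, was at 86.5, 86.5 and 82.7 CPM in sgITPR3, against 75.8, 72.8 and 74.9 CPM in sgCtrl. It was higher without overlap (log2 fold change 0.19, SE 0.065, edgeR adjusted p = 0.0436), but the call ended in 9 of 14 alternatives. Among them were the fit with ALB as a covariate and each of the 6 fits without a library (adjusted p from 0.0576 to 0.158 for these 6). ACSL4, which prefers arachidonate, had a log2 fold change of 0.15 (edgeR adjusted p = 0.221), and 0.26 with ALB as a covariate (adjusted p = 0.122).

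ACSL1, the main form of liver and fat, was at 43.0, 36.5 and 27.5 CPM in sgITPR3 and 25.1, 32.8 and 21.8 CPM in sgCtrl (log2 fold change 0.43, SE 0.155, edgeR adjusted p = 0.06098). Within each group, of 3 libraries, its order was that of the summed hepatocyte markers. The parts of hepatocyte RNA and of chromosome position in the ACSL1 values were not tested. The log2 fold change of ACSL1 was 0.05 with ALB as a covariate (adjusted p = 0.866) and 0.61 without sgCtrl replicate 2 (adjusted p = 0.00403). ACSL1 passed in 6 of 14 alternatives, the others being upper-quartile scaling (adjusted p = 0.0401), no filter (3.52e-04), the replicate block (0.01305), DESeq2 (0.0319) and the fit without sgITPR3 replicate 3 (0.0173).

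**Figure D4:**
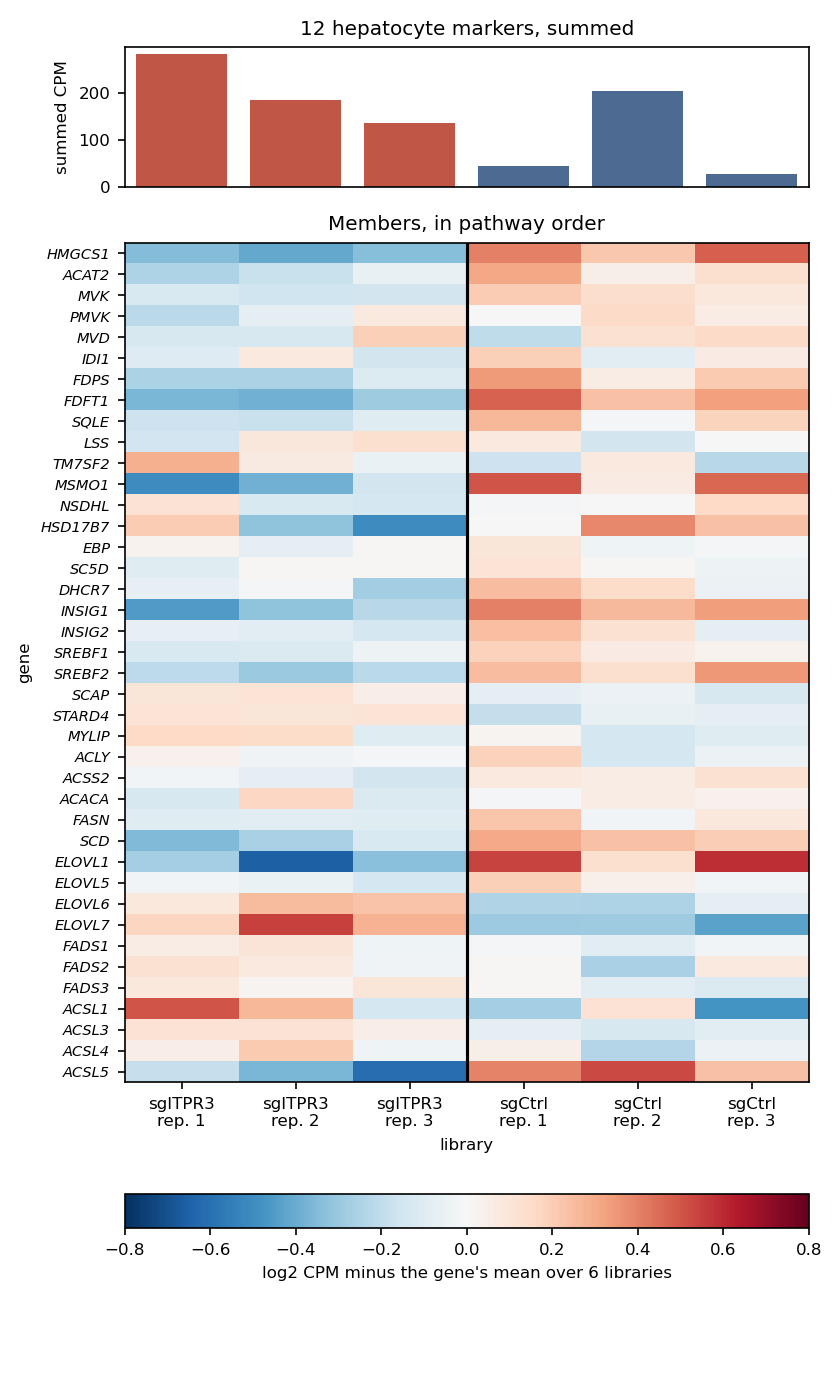
Summed CPM of 12 hepatocyte markers (bars, y axis from 0) above a heat map of the 40 tested members (rows, in pathway order) in the 6 libraries (columns). Colour is log2 CPM minus the mean of the gene over libraries. The marker sum is 205 CPM in sgCtrl replicate 2, against 45.1 and 27.5 CPM in the other sgCtrl libraries, and that library is paler than both in HMGCS1, FDPS, FDFT1 and MSMO1.

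Replicate 2 of sgCtrl was the lowest sgCtrl library, and so nearest to sgITPR3, for 9 of the 11 lower members, the exceptions being SCD and ACSL5. Over all 1882 genes that were lower this held for 1002 (53.2%). The hepatocyte marker sum of that library was 205 CPM. With ALB as a covariate, HMGCS1, FDFT1, MSMO1, INSIG1, SCD, ELOVL1 and ACSL5 still passed, and the median log2 fold change of the sterol enzymes was -0.17, against -0.23 without it. Without that library the median of the sterol enzymes was -0.22, with 6 lower and 1 higher. The higher one was TM7SF2 (log2 fold change 0.30, edgeR adjusted p = 0.0429).

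Genes around the pathway were looked at as lists, to be set beside 11.9% lower and 11.6% higher over all genes tested. Of 11 tested genes of SREBP processing and its partners, 2 fell (18.2%), none rose and 9 did not pass (median log2 fold change -0.09). ERLIN1, which encodes a membrane protein that restrains SREBP activation, was at 37.3, 35.0 and 34.1 CPM in sgITPR3, against 45.8, 43.0 and 43.5 CPM in sgCtrl (log2 fold change -0.31, SE 0.078, edgeR adjusted p = 0.00915). SP1, a transcription factor that cooperates with SREBP, was at 52.7, 54.0 and 58.2 CPM in sgITPR3, against 64.9, 64.5 and 68.2 CPM in sgCtrl (log2 fold change -0.26, edgeR adjusted p = 0.0154). The protease genes MBTPS1 and MBTPS2 and the NF-Y genes did not pass. Of 13 genes of the isoprenoid branch, which use mevalonate products for prenyl groups, dolichol and ubiquinone, 1 fell (7.69%) and 12 did not pass (median -0.16). The one that fell was DHDDS, a subunit of the dolichol synthase (log2 fold change -0.35, edgeR adjusted p = 0.0235).

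Of 13 genes of sterol trafficking and LXR, the nuclear receptor of oxidised sterols, 2 fell, 3 rose and 8 did not pass (median 0.11). Those that fell were 15.4% and those that rose 23.1%, against 11.9% and 11.6% of all genes tested. LPCAT3, a phospholipid acyltransferase and LXR target, was at 31.8, 26.6 and 24.5 CPM in sgITPR3, against 35.3, 41.3 and 33.2 CPM in sgCtrl (log2 fold change -0.40, edgeR adjusted p = 0.0155). NPC2, which carries cholesterol out of lysosomes, had a log2 fold change of -0.22 (edgeR adjusted p = 0.0449). TMEM97 and STARD3, both on chromosome 17, rose by 0.28 on the log2 scale (edgeR adjusted p = 0.0431 for STARD3). STARD5 rose by 0.74 (edgeR adjusted p = 0.0476), at 2.59, 3.68 and 2.83 CPM in sgITPR3, against 1.93, 1.49 and 2.03 CPM in sgCtrl. TMEM97, itself an SREBP-2 target, was at 95.5, 104 and 102 CPM in sgITPR3 and 79.3, 72.7 and 95.8 CPM in sgCtrl, so the groups overlapped slightly (edgeR adjusted p = 0.0351).

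Of 14 tested genes among other fatty acid synthesis and elongation genes, 2 fell, 2 rose and 10 did not pass (median -0.04). Each direction was 14.3% of those tested, against 11.9% lower and 11.6% higher over all genes tested. PGD, which makes NADPH in the pentose phosphate pathway, fell by 0.34 on the log2 scale (edgeR adjusted p = 0.00779). ACACB, the carboxylase that makes malonyl-CoA at mitochondria, was at 11.4, 12.9 and 10.9 CPM in sgITPR3, against 7.30, 10.3 and 8.16 CPM in sgCtrl (log2 fold change 0.45, edgeR adjusted p = 0.0384). TECR, the reductase of the elongation cycle, only just passed, with a log2 fold change of -0.67 (edgeR adjusted p = 0.0487). Its groups overlapped, at 10.1, 9.98 and 7.26 CPM in sgITPR3 and 21.0, 13.9 and 8.96 CPM in sgCtrl. ELOVL2 was at 1.51, 0.889 and 0.566 CPM in sgITPR3, against 0.161, 0.546 and 0.160 CPM in sgCtrl, and rose by 1.74 on the log2 scale (edgeR adjusted p = 0.0369). Replicates 1 and 3 of sgCtrl held 3 ELOVL2 counts each, which is the floor, and within each group the library with the most hepatocyte marker counts was the highest. The part of hepatocyte RNA in this difference was not tested.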

How the data were processed

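RNA of 6 libraries (3 sgITPR3, 3 sgCtrl) was made with the Lexogen 3' FWD kit, per the labels. Values are gene counts as deposited, made by the authors with STAR 2.6.0a on GRCh38 and featureCounts 1.6.3, per the submitters' processing notes, which also name DESeq2. Annotation, strand setting and treatment of mouse and multi-mapping reads were among the items not given in the sources used here. Symbols came from the reference name table (58876 of 58884 identifiers) and positions from GENCODE release 29.

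With R 4.3.3 and edgeR 4.0.16, genes were kept by filterByExpr (minimum count 10; 15804 genes), scaled by TMM and compared by the quasi-likelihood F test with no covariate, adjusted by Benjamini-Hochberg over all genes tested; an adjusted p under 0.05 passed. The SE is the absolute log2 fold change over the square root of F. Libraries of a group differed by more than sampling noise (chi-square per degree of freedom 6.08 to 11.5). Every member is named, in pathway order; genes of related lists are named where they passed. Members and lists were chosen with earlier results of these data known. Alternatives were RLE and upper-quartile scaling, no filter, 1 CPM in 3 libraries, the replicate block, each library left out, DESeq2 1.42.0, limma-voom (limma 3.58.1) and the log2 level of ALB as a covariate. The fit was tested on simulated data.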

Additional observations from a re-analysis of the deposited data

How the results depend on the processing

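The 11 lower members were called, the same genes, under RLE scaling, upper-quartile scaling, no filter, 1 CPM in 3 libraries, the replicate block, DESeq2 and limma-voom. With ALB as a covariate 7 members were lower and 1 higher, 3 sterol enzymes were lower, and all genes gave 995 lower and 1012 higher; the cause was not tested. Leaving out 1 library gave 9 to 13 lower and 0 to 2 higher members, 4 to 7 lower sterol enzymes, and 1197 to 2140 lower and 1136 to 2121 higher genes. Both lowest totals over all genes came without sgITPR3 replicate 2. Upper-quartile scaling, which shifts all genes by 0.06, gave 6 higher members instead of 2. The higher members are thus few and change with the setting. Correlations of deviations between libraries of the same replicate number were -0.03, 0.12 and 0.17 for numbers 1, 2 and 3. Libraries numbered 2 and 3 correlated best with their own number and those numbered 1 with another. These values neither show nor exclude a pairing by number. With the replicate block 11 members were lower and 2 higher, with 1981 genes lower and 1896 higher. The lower members were the same genes, but with the block ACSL3 no longer passed (adjusted p = 0.0507) and ACSL1 did (0.01305), and with no filter ACSL3 was likewise lost (0.1215) and ACSL1 gained (3.52e-04).

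Signs of uncalled members near 0 turned in some fits. With upper-quartile scaling the log2 fold change was 0.0087 for MVD, 0.026 for EBP, 0.0078 for SC5D, 0.051 for ACLY and 0.013 for ACACA. With ALB as a covariate it was -0.0018 for TM7SF2 and 0.079 for ACLY, and with 1 CPM in 3 libraries 0.0015 for ACLY. Leaving out 1 library gave -0.16 to 0.011 for MVD, -0.019 to 0.13 for LSS, -0.061 to 0.0037 for EBP, -0.080 to 0.085 for ACLY and -0.15 to 0.0054 for ACACA. CYP51A1 was left out by the low-count filter, and the fit with no filter included all 41 members, with 11 lower and 2 higher.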

Other observations

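Genes that store and burn fatty acids were not part of the report. Of 12 tested triglyceride and lipid droplet genes, 2 fell, 2 rose and 8 did not pass (median log2 fold change -0.05). Each direction was 16.7% of those tested, against 11.9% lower and 11.6% higher over all genes tested. Both that fell encode coat proteins of lipid droplets. PLIN2 was at 226, 192 and 242 CPM in sgITPR3, against 266, 311 and 273 CPM in sgCtrl (log2 fold change -0.37, SE 0.088, edgeR adjusted p = 0.00778). PLIN3 was at 98.5, 95.4 and 105 CPM in sgITPR3, against 128, 124 and 136 CPM in sgCtrl (log2 fold change -0.37, SE 0.069, edgeR adjusted p = 0.00135). LIPE, hormone-sensitive lipase, was at 7.93, 6.63 and 7.98 CPM in sgITPR3, against 3.22, 4.72 and 4.53 CPM in sgCtrl, 1.80-fold higher (edgeR adjusted p = 0.00391). LPIN2, a phosphatidate phosphatase, rose by 0.33 on the log2 scale (edgeR adjusted p = 0.0194).

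Of 16 fatty acid oxidation genes, 1 fell, 1 rose and 14 did not pass (median log2 fold change -0.04). Each direction was 6.25% of those tested, below the 11.9% lower and 11.6% higher over all genes tested. ACADVL, the very long chain acyl-CoA dehydrogenase, was at 223, 226 and 211 CPM in sgITPR3, against 256, 294 and 242 CPM in sgCtrl (log2 fold change -0.26, edgeR adjusted p = 0.0222). HADH, a hydroxyacyl-CoA dehydrogenase, was at 42.2, 44.5 and 38.9 CPM in sgITPR3, against 34.5, 31.1 and 37.1 CPM in sgCtrl (log2 fold change 0.29, edgeR adjusted p = 0.0276). No list was tested as a set.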
